A study of Mus musculus with 14 samples.

Results

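The epithelial to mesenchymal transition (EMT) was followed through 10 of its genes on 14 mouse arrays, namely *Cdh1*, *Epcam*, *Cdh2*, *Vim*, *Snai1*, *Snai2*, *Zeb1*, *Zeb2*, *Twist1* and *Prrx2*. They were set as a list of names, with earlier results of these data known. All 10 were found among the 36282 gene names of the array, where they are read by 12 of 55681 probes. The arrays hold 3 samples of whole small intestine from C57BL/6J mice, 3 of colon labelled with the same strain, 3 macroscopic adenomas and 2 pieces of tissue adjacent to adenomas from APCmin/+ mice, and 3 of CT26, a mouse colon carcinoma cell line obtained from a cell bank and derived from BALB/c. APCmin/+ mice carry a truncating mutation in 1 copy of *Apc*, the brake on Wnt signaling, and form benign intestinal tumors. The study's sample list puts all adenoma and adjacent pieces under 1 mouse and 1 of the colon samples under an *Apc* mutant mouse, so the spread among those pieces is not a spread between animals. The small intestine samples are listed under different mice. CT26 is a single line in culture, without the stroma, blood vessels and leukocytes of a tissue, so line, strain and the lack of those cells cannot be told apart in any comparison with it. Nothing in the labels says that the CT26 samples came from separate cultures, and p-values then measure the spread between these samples, which may be technical.

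In EMT, epithelial cells lose the adhesion molecules that hold them in a sheet and take up the cytoskeleton and motility of mesenchymal cells. E-cadherin (*Cdh1*) and EpCAM (*Epcam*) mark the intestinal epithelium, whereas N-cadherin (*Cdh2*) and the intermediate filament vimentin (*Vim*) mark mesenchymal cells. The zinc finger factors Snail (*Snai1*), Slug (*Snai2*), *Zeb1* and *Zeb2* repress *Cdh1* through E-boxes in its promoter, *Twist1* is a basic helix-loop-helix factor and *Prrx2* a homeobox factor of mesenchyme. Fibroblasts, smooth muscle and endothelium of normal gut wall express several of these mesenchymal genes, so that in a bulk tissue fewer cells of a type and less RNA per cell cannot be told apart.

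The E-box bound by these zinc finger factors (CAGGTG, or CACCTG on the other strand) was searched on both strands in the RefSeq promoter table of GRCm38.p6, which gives 300 bases per start site, 250 before it and 50 after. Of the 10 genes, 6 were matched in that table, and *Cdh1*, *Cdh2*, *Snai2* and *Zeb1* were not. *Epcam* held 2 such E-boxes and *Snai1* held 1, whereas *Vim*, *Twist1*, *Prrx2* and the 4 start sites of *Zeb2* held 0. Of all 32851 promoters in the table, 20.2% held at least 1 and 2.88% at least 2. The 250 bases before the start are printed for 2 genes with the motif and 2 without it, so that the promoter of an epithelial gene stands beside those of factors and effectors described with it. Capitals mark the E-box, with its first base at -187 and -19 in *Epcam* (chr17:87635729-87635978) and at -126 in *Snai1* (chr2:167537945-167538194), while *Vim* (chr2:13574061-13574310) and *Prrx2* (chr2:30845117-30845366) are shown without a match, all on the plus strand of GRCm38.p6.
Epcam: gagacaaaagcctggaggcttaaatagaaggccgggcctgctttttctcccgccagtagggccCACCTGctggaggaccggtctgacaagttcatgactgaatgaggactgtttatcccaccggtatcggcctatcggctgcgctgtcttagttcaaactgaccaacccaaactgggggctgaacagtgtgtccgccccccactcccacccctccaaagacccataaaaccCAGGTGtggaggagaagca
Snai1: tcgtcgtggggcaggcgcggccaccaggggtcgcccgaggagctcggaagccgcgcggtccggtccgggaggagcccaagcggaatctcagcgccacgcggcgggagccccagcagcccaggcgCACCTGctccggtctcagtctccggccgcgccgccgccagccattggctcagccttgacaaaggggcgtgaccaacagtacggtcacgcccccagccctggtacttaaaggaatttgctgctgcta
Vim: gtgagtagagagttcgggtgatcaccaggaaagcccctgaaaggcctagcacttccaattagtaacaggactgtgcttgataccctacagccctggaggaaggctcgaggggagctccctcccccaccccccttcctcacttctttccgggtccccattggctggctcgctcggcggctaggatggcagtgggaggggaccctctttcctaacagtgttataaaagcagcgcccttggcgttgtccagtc
Prrx2: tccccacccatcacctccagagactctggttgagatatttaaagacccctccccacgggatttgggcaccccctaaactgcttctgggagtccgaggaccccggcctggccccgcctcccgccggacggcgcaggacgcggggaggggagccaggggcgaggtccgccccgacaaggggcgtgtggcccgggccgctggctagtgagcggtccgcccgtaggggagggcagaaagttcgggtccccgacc
A match of these letters is a description of the sequence and not a measured binding site.

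Each level given here is the log2 of the background-subtracted signal minus the 75th percentile of that array, so that 0 is the brightness of the probe at that percentile. Levels of different genes come from different probes and are not set against each other. The scanner software marked 46.8% to 58.2% of probes per array as well above background, fewest on colon replicate 3. Pairs of groups were compared with limma on their own arrays. A probe was tested when all arrays of either group had it above background, and called at a log2 difference of 1.2 or more in size and an adjusted p (Benjamini-Hochberg) no higher than 0.01. The arrays lay on 2 slides, each of which held all 5 groups, and differences within each slide are given where they bear on a call. No probe of the 10 genes was saturated. Colon replicate 3 went against its label in part. Its median over 5 enterocyte markers of the small intestine was 4.44, against -5.01 and -5.07 on the other colon arrays, and its *Car1* and *Aqp8*, genes of colonocytes, lay at -3.09 and -4.61 against at least 7.17 and 6.44 on the others. Results that use colon are therefore given with and without that array. CT26 was also checked against markers of the intestinal epithelium. *Vil1* and *Krt19* were not well above background on any CT26 array, whereas *Krt20* and *Cdx2* were so on all 3.

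**Figure D1:**
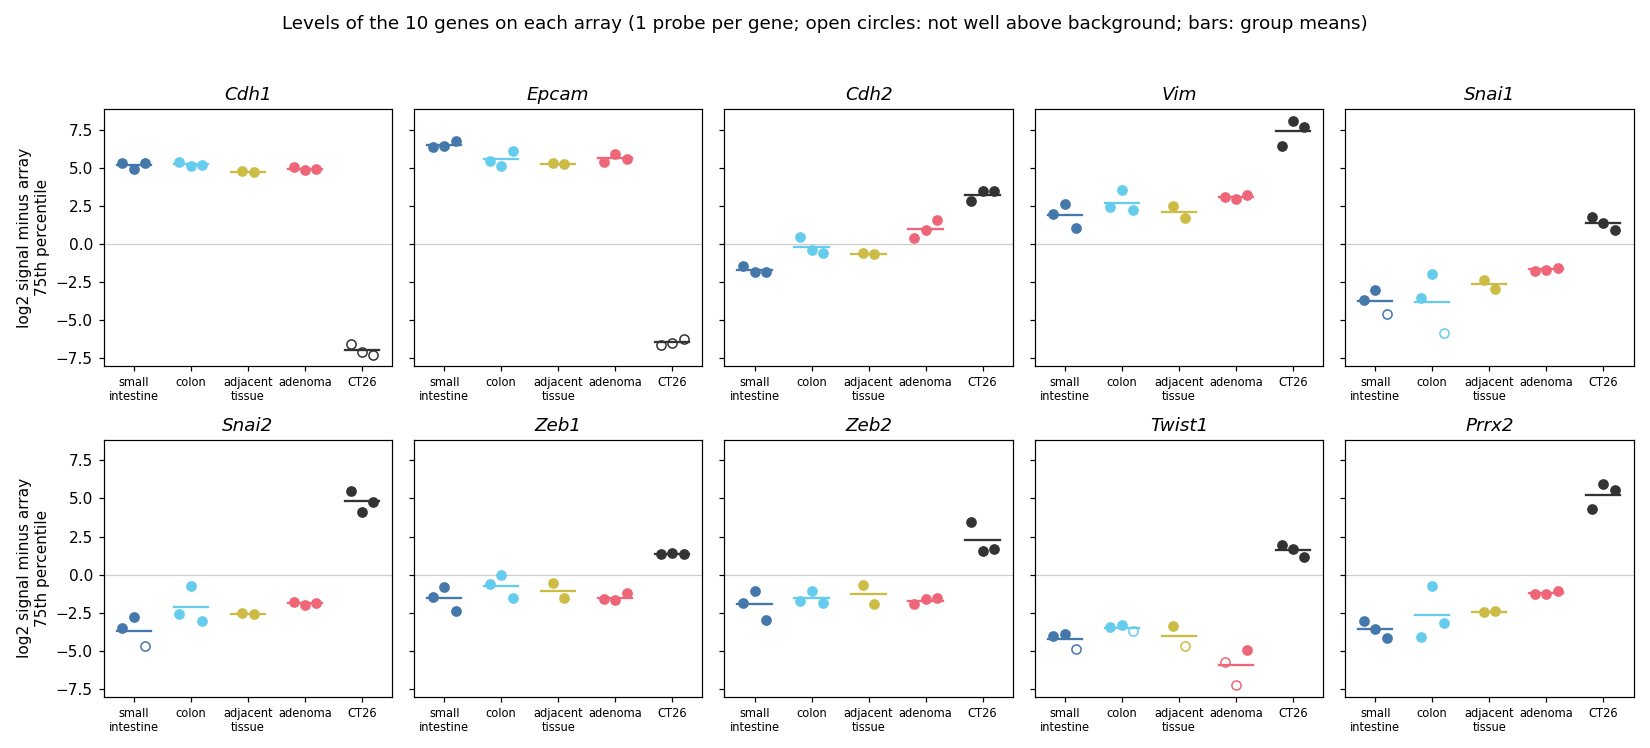
Levels of the 10 genes on each of the 14 arrays, as log2 signal minus the 75th percentile of the array, with 1 point per array and a bar at each group mean. *Cdh1* and *Epcam* lie between 4.71 and 6.74 on every tissue array and from -7.27 to -6.20 in CT26, where the open circles mark signals not well above background, and the other 8 genes are highest in CT26.

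*Cdh1* was detected at similar levels in the 4 tissues and not detected in CT26. Its probe (mm9, chr8:109193812-109193871) read 5.32, 4.94 and 5.32 in small intestine, 5.37, 5.13 and 5.18 in colon, 4.79 and 4.71 in adjacent tissue and 5.08, 4.84 and 4.94 in adenomas. In CT26 it read -6.56, -7.09 and -7.27, and none of these signals was well above background. All 11 tissue arrays lie between 4.71 and 5.37, and CT26 does not overlap them. Adenomas differed from small intestine by -0.24 (standard error 0.18, limma adjusted p = 0.284) and from adjacent tissue by 0.20 (standard error 0.15, adjusted p = 0.378), so no fall of E-cadherin mRNA passed the test in the tumors. In CT26 its level was at least 1452-fold lower than in colon (adjusted p = 5.42e-07) and at least 1201-fold lower than in adenomas (adjusted p = 3.19e-08). These bounds hold for the values used here. Across the alternatives the smallest log2 differences were -8.53 against colon and -8.32 against adenomas, both called.

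*Epcam*, which encodes a homophilic adhesion molecule of epithelia, followed *Cdh1* in CT26 but varied more among tissues. Its probe (mm9, chr17:88048972-88049800, interrupted by an intron) read 6.36, 6.46 and 6.74 in small intestine, 5.42, 5.12 and 6.13 in colon, 5.30 and 5.24 in adjacent tissue and 5.37, 5.94 and 5.60 in adenomas. Every small intestine array lay above every other tissue array. Adenomas differed from small intestine by -0.88 (standard error 0.21, limma adjusted p = 0.0113) and adjacent tissue by -1.25 (standard error 0.22, adjusted p = 0.0517), and neither passed the thresholds. The highest colon value was that of replicate 3, and without it colon differed from small intestine by -1.25 (adjusted p = 0.0180), against -0.96 (adjusted p = 0.150) with it. In CT26 *Epcam* read -6.60, -6.49 and -6.20, not well above background, which was at least 1828-fold lower than in colon (adjusted p = 5.92e-07) and at least 1932-fold lower than in adenomas (adjusted p = 3.19e-08). Across the alternatives the smallest log2 differences were -8.41 and -8.54, both called, so these bounds hold for the values used here.

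*Cdh2* was the mesenchymal effector that rose in adenomas. Its brighter probe (mm9, chr18:16747559-16747618) read -1.46, -1.85 and -1.84 in small intestine, -0.61 and -0.66 in adjacent tissue and 0.39, 0.93 and 1.56 in adenomas. The order small intestine, adjacent tissue, adenoma holds for every array, with no overlap. Against small intestine, adenomas rose by 2.68 (standard error 0.31, 6.42-fold, limma adjusted p = 0.000689), with 2.63 and 2.78 within the 2 slides. Against adjacent tissue the difference was 1.60 (standard error 0.34, adjusted p = 0.0298) and was not called. Colon read 0.44, -0.37 and -0.62 and CT26 2.80, 3.50 and 3.46, a rise of 3.43 over colon (standard error 0.38, adjusted p = 0.000255) and of 2.29 over adenomas (standard error 0.34, adjusted p = 0.000712). Its second probe gave the same calls in every pair.

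*Vim* was well above background on every array and brightest in CT26. Its probe (mm9, chr2:13504232-13504291) read 1.99, 2.64 and 1.07 in small intestine, 2.42, 3.55 and 2.21 in colon, 2.51 and 1.71 in adjacent tissue, 3.07, 2.96 and 3.20 in adenomas and 6.47, 8.08 and 7.69 in CT26. Adenomas lay above every small intestine array, by 1.18 on average (standard error 0.38, limma adjusted p = 0.0349), and above both adjacent arrays, by 0.96 (standard error 0.26, adjusted p = 0.0526), and neither was called. Within the slides the first of these differences was 1.61 and 0.32. CT26 rose over colon by 4.69 (standard error 0.53, 25.7-fold, adjusted p = 0.000277) and over adenomas by 4.34 (standard error 0.40, 20.2-fold, adjusted p = 4.46e-05). Among tissue arrays *Vim* was lowest on small intestine replicate 3, which also had the lowest median of 5 fibroblast markers (-1.71, against 0.03 and 1.26 on the other small intestine arrays). The part of fibroblast content in this spread was not tested.

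Of the Snail factors, *Snai1* rose in adenomas. Its probe (mm9, chr2:167368073-167368132) read -3.64, -3.02 and -4.58 in small intestine, the last not well above background, -2.35 and -2.95 in adjacent tissue and -1.74, -1.72 and -1.55 in adenomas. The 3 adenoma arrays lie close together and above every array of both other groups. Against adjacent tissue the difference was 0.98 (standard error 0.22, limma adjusted p = 0.0332) and was not called. Adenomas rose over small intestine by 2.08 (standard error 0.37, 4.23-fold, limma adjusted p = 0.00393), with 2.47 and 1.31 within the slides, and the call was lost without any single adenoma array (adjusted p from 0.0161 to 0.0180). With the authors' normalized values the difference was 1.13 and with normexp background correction 0.99, below the threshold on size. The call was also lost without the filter on dim probes (adjusted p = 0.0101) and with all 5 groups in 1 fit (adjusted p = 0.0421). Colon read -3.54, -1.98 and -5.82, the last on replicate 3 and not well above background. CT26 read 1.79, 1.36 and 0.91 and rose over colon by 5.13 (standard error 0.87, adjusted p = 0.00199), or by 4.12 without colon replicate 3 (adjusted p = 0.000485) and 4.91 without CT26 replicate 1, where the call was lost (adjusted p = 0.0136), and over adenomas by 3.02 (standard error 0.26, adjusted p = 3.01e-05).

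*Snai2* rose in CT26, whereas in adenomas it lay above small intestine and adjacent tissue without passing the thresholds. Its probe (mm9, chr16:14709361-14709420) read -3.53, -2.80 and -4.71 in small intestine, with the last not well above background, -2.53 and -2.60 in adjacent tissue, -1.82, -1.98 and -1.83 in adenomas, -2.59, -0.77 and -3.03 in colon and 5.51, 4.12 and 4.79 in CT26. Adenomas were 1.80 above small intestine (standard error 0.44, limma adjusted p = 0.0139) and 0.68 above adjacent tissue (standard error 0.15, adjusted p = 0.0305), and neither was called. Without small intestine replicate 3 the first passed, at 1.28 (adjusted p = 0.00910), and likewise without replicate 2, at 2.24 (adjusted p = 0.00575). CT26 rose by 6.94 over colon (standard error 0.63, 122-fold, adjusted p = 9.52e-05) and by 6.69 over adenomas (standard error 0.34, 103-fold, adjusted p = 1.55e-06).

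*Zeb1* and *Zeb2* did not pass in any pair of tissues tested. The *Zeb1* probe (mm9, chr18:5774613-5774672) read -1.49, -0.82 and -2.39 in small intestine, -0.57 and -1.53 in adjacent tissue, -1.62, -1.70 and -1.22 in adenomas and -0.64, -0.04 and -1.51 in colon, and these groups overlap. The brighter *Zeb2* probe (mm9, chr2:44842774-44842833) read -1.83, -1.09 and -2.95 in small intestine, -0.66 and -1.91 in adjacent tissue, -1.92, -1.63 and -1.56 in adenomas and -1.75, -1.06 and -1.89 in colon. Adenomas differed from small intestine by 0.05 in *Zeb1* (standard error 0.39, limma adjusted p = 0.914) and by 0.25 in *Zeb2* (standard error 0.44, adjusted p = 0.645). Both differences changed sign between the slides, with 0.52 and -0.87 for *Zeb1* and 0.65 and -0.54 for *Zeb2*.

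Both factors rose in CT26. *Zeb1* read 1.32, 1.43 and 1.34 there, a rise of 2.09 over colon (standard error 0.40, limma adjusted p = 0.00360) and of 2.88 over adenomas (standard error 0.21, adjusted p = 1.07e-05). *Zeb2* read 3.47, 1.56 and 1.70, with replicate 1 highest, and rose by 3.82 over colon (standard error 0.55, adjusted p = 0.000890) and by 3.95 over adenomas (standard error 0.49, adjusted p = 0.000240). Its second probe (mm9, chr2:44840038-44840097) was not well above background on any tissue array and was so on all 3 CT26 arrays, where its level was at least 2.85-fold higher than in colon and at least 4.07-fold higher than in adenomas, both called. The *Zeb1* call against colon was lost with slide as a block (adjusted p = 0.0110), without colon replicate 1 and without any single CT26 array (adjusted p from 0.0120 to 0.0162).

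*Twist1* gave signals near background in every tissue and its lowest in adenomas. Its probe (mm9, chr12:34644411-34644470) read -4.86 to -3.91 in small intestine, -3.44, -3.32 and -3.73 in colon, -3.39 and -4.72 in adjacent tissue and -5.72, -7.22 and -4.93 in adenomas. It was above background on 2 of 3 small intestine, 2 of 3 colon, 1 of 2 adjacent and 1 of 3 adenoma arrays, so no pair of tissues was tested. The smooth muscle marker list was low on the same adenoma arrays, with medians from 1.47 to 1.67 against 2.42 to 4.60 on the other tissue arrays, and the part of smooth muscle content was not tested. CT26 read 1.95, 1.69 and 1.15 and rose by 5.09 over colon (standard error 0.32, limma adjusted p = 1.41e-05) and by 7.55 over adenomas (standard error 0.55, adjusted p = 1.11e-05), the latter against a group measured above background on 1 array.

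*Prrx2* rose in adenomas and more so in CT26. Its probe (mm9, chr2:30736678-30736737) read -3.06, -3.56 and -4.19 in small intestine, -2.44 and -2.42 in adjacent tissue, -1.26, -1.29 and -1.09 in adenomas and 4.28, 5.92 and 5.57 in CT26. These 4 groups follow each other without overlap. Adenomas rose over small intestine by 2.39 (standard error 0.29, 5.25-fold, limma adjusted p = 0.000824), with 2.46 and 2.27 within the slides, and over adjacent tissue by 1.22 (standard error 0.15, 2.33-fold, adjusted p = 0.00779). The first of these calls was lost with all 5 groups in 1 fit (adjusted p = 0.0185), and its smallest difference across the alternatives was 1.36. The second of these calls lies next to the threshold of 1.2 and was lost when any single array was left out (adjusted p from 0.0159 to 0.0450). Colon read -4.13, -0.73 and -3.17, so that replicate 2 stands above every small intestine, adjacent and adenoma array and the other 2 do not. CT26 rose over colon by 7.93 (standard error 0.86, 244-fold, adjusted p = 0.000224), with 5.65 and 9.57 within the slides, and over adenomas by 6.47 (standard error 0.41, 88.5-fold, adjusted p = 4.88e-06).

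**Figure D2:**
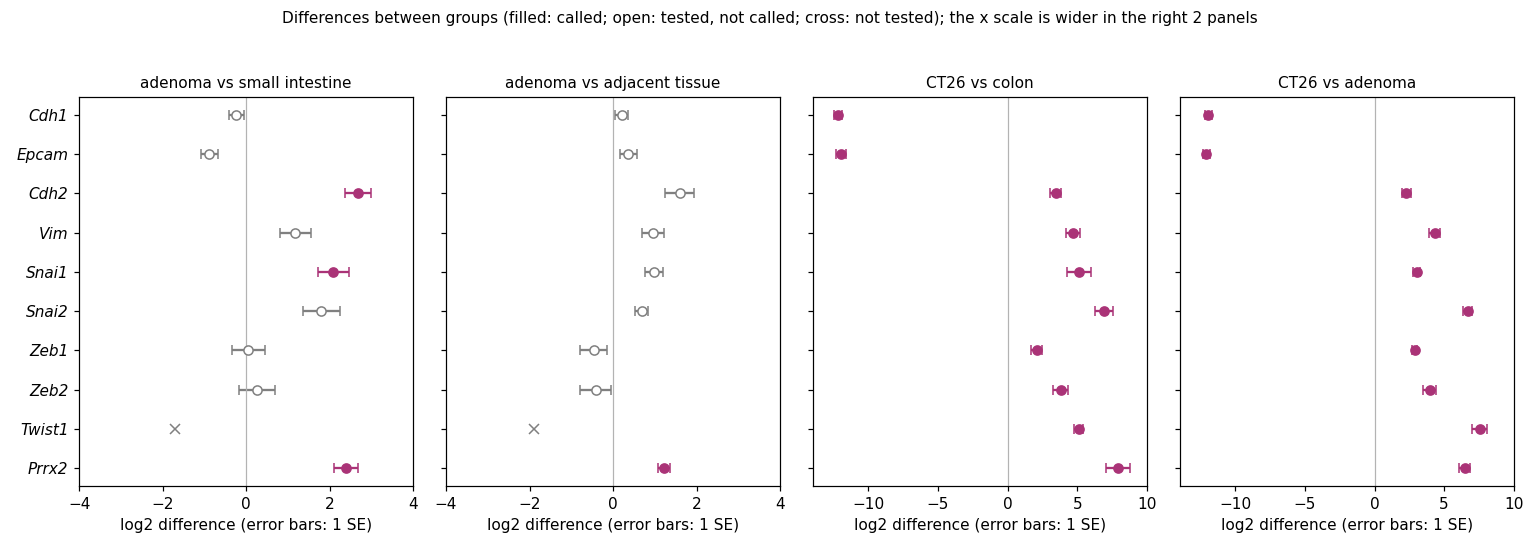
Log2 differences of the 10 genes in 4 pairs of groups with their standard errors, where filled points were called, open points were tested and not called, and crosses were not tested. *Cdh2*, *Snai1* and *Prrx2* are called in adenomas against small intestine and *Prrx2* alone against adjacent tissue, whereas all 10 are called in CT26 against colon and against adenomas, on a wider scale.

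In adenomas 3 of the 10 transcripts rose over small intestine and none fell. Of 9 genes tested between adenomas and small intestine, 3 were called higher, and 10.9% of all 29539 probes tested were called higher and 10.9% lower, a share of 50% higher among the calls that became 60.7% when the percentile was taken over the probes above background on all 14 arrays (the other scaling). *Snai1* and *Snai2* passed the filter on dim probes only through the adenoma arrays. Between adenomas and adjacent tissue 1 of 9 was called, where 2.27% of 29734 probes were called higher and 1.71% lower. Both comparisons share the adenoma arrays. Markers of other cell types differed in the first comparison, in both directions. All 5 fibroblast and all 5 endothelial markers were detected throughout both groups, with medians of 1.30 to 1.42 in adenomas against -1.71 to 1.26 in small intestine for fibroblasts, and of -1.48 to -1.08 against -2.86 to -2.41 for endothelium. Their summed levels ran from 5.27 to 5.56 against 2.94 to 5.69 for fibroblasts and from 3.24 to 3.78 against 3.40 to 3.95 for endothelium. The medians of smooth muscle (1.47 to 1.67 against 2.42 to 4.04), intestinal epithelium (6.16 to 6.58 against 7.38 to 8.60) and small intestine enterocytes (4.35 to 5.50 against 6.81 to 9.11) were lower in adenomas on every array, with all 5 markers of each detected throughout. Their summed levels ran from 5.33 to 5.62 against 6.09 to 8.07, from 9.17 to 9.45 against 10.47 to 10.81 and from 6.73 to 7.66 against 9.39 to 11.20. Neuron and glia markers, 4 to 5 of 5 detected, had summed levels of 1.29 to 2.56 in adenomas against 0.10 to 0.43 in small intestine. Their medians overlapped (-2.02 to -1.67 against -2.71 to -1.83). Leukocyte markers overlapped in medians (-0.61 to 0.66 against -0.26 to 0.11) and in summed levels (2.95 to 3.63 against 2.89 to 3.42). The part of these lists in the result was not tested.

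The non-tumor tissues showed no call among the 10 genes. Between adjacent tissue and small intestine 0 of 9 tested genes were called by limma, in a comparison that called 0.00694% of 28833 probes higher and 0% lower while 8748 had an unadjusted p under 0.05. *Epcam* lay at -1.25, *Prrx2* at 1.17 (standard error 0.36, adjusted p = 0.101) and *Cdh2* at 1.08 (standard error 0.22, adjusted p = 0.0613). Between colon and small intestine 0 of 8 were called, with 0.00366% of 27302 probes called in each direction and 6414 at an unadjusted p under 0.05. *Cdh2* was 1.54 higher in colon (standard error 0.33, adjusted p = 0.0840), or 1.76 without colon replicate 3 (adjusted p = 0.0143). Without that array 6.94% of the probes were called and still none of the 10 genes.

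CT26 differed from colon in all 10 genes, 2 lower and 8 higher. *Snai1* and *Twist1* passed the filter on dim probes only through the CT26 arrays, and *Cdh1* and *Epcam* only through colon. With signal asked on every array of both groups 6 were called. In that comparison 21.5% of 29398 probes were called higher and 14.9% lower, and the median difference of all probes was 0.37. Of these calls 59.1% were higher, or 33.9% with the other scaling, under which 9 of the 10 genes were called, all but *Zeb1*. Against adenomas the same 2 genes were lower and the same 8 higher, where 22.9% of 31013 probes were called higher and 18.7% lower (55% of the calls higher, or 31.6% with the other scaling, again with all 10 genes called). Against adenomas *Twist1* passed the filter only through CT26, and *Cdh1* and *Epcam* only through adenomas. The stricter filter then left 7 called. Both comparisons share the CT26 arrays. Without colon replicate 3 all 10 remained called against colon, with differences from 1.70 for *Zeb1* to 7.69 for *Prrx2* among those higher. Stromal markers were low in CT26 in part. On its arrays 3 of 5 fibroblast, 1 of 5 smooth muscle, 2 of 5 endothelial and 1 to 2 of 5 leukocyte markers were well above background. *Lum*, *Dpt*, *Cnn1*, *Des*, *Myh11*, *Synm*, *Cdh5*, *Emcn*, *Tie1*, *Cd52* and *Laptm5* were not so on any of them, whereas *Pdgfra*, *Dcn*, *Col6a1*, *Actg2*, *Kdr*, *Pecam1* and *Coro1a* were so on all 3. The summed fibroblast level ran from 0.27 to 2.25 in CT26 against 4.45 to 5.30 in colon and 5.27 to 5.56 in adenomas. That of endothelium, 2.53 to 2.93, overlapped colon (2.45 to 4.49) and lay below adenomas (3.24 to 3.78), with *Kdr* at 2.50 to 2.90 in CT26 and 2.03 to 4.45 in colon. The summed smooth muscle level ran from -2.86 to -1.43 against at least 5.33 in colon and adenomas, and that of leukocytes from -2.14 to -2.02 against at least 2.95. The part of these cell types in the result was not tested.

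**Figure D3:**
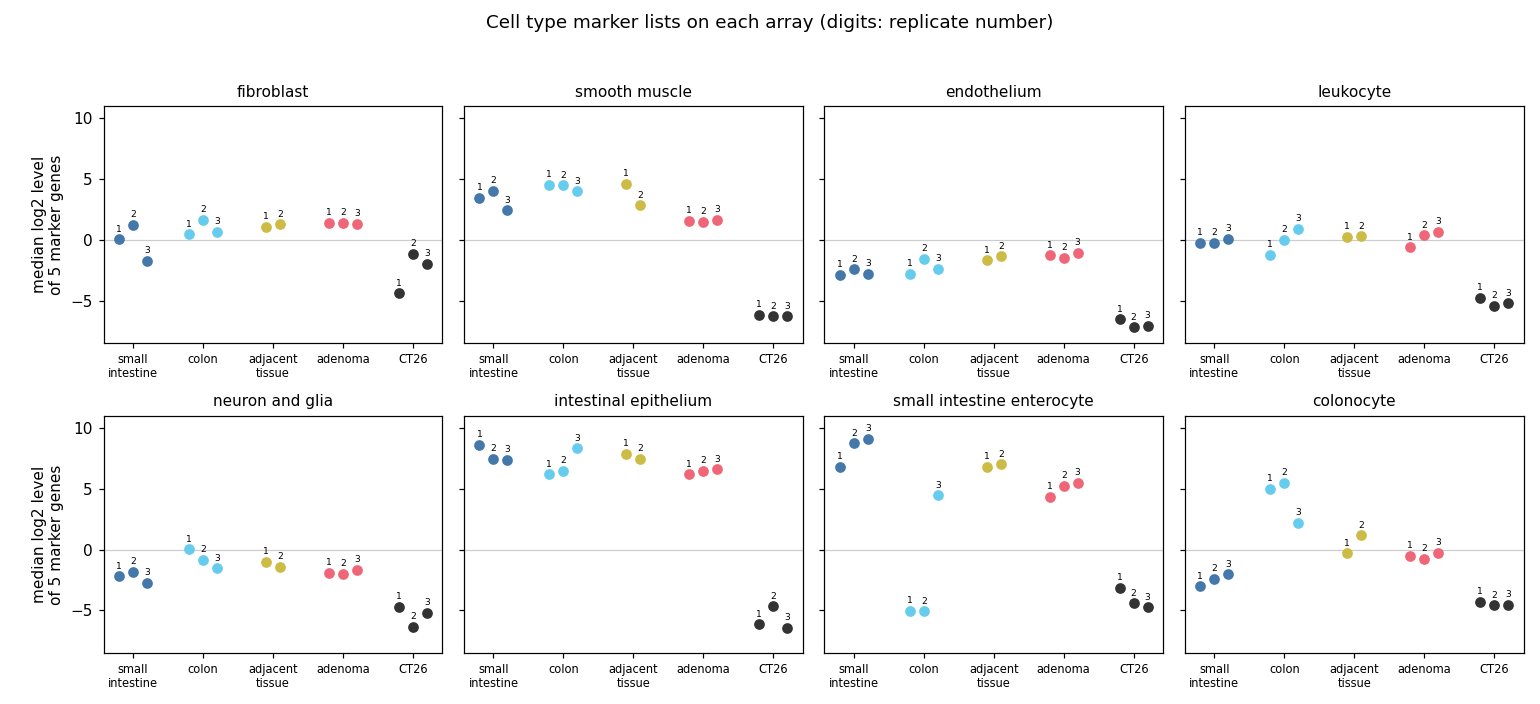
Median log2 level of 5 marker genes per cell type on each array, with digits for the replicate number. The smooth muscle, endothelium and leukocyte medians are lowest on the 3 CT26 arrays, the fibroblast median of CT26 (-4.38 to -1.14) overlaps that of small intestine, and colon replicate 3 lies at 4.44 in enterocyte markers, below small intestine (6.81 to 9.11) and far above the other colon arrays.

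The step from colon to CT26 was then set against the step from small intestine to adenoma, as a difference of differences in 1 limma fit of these 4 groups. It was called for 7 of the 10 genes, lower for *Cdh1* and *Epcam* and higher for *Vim*, *Snai2*, *Zeb2*, *Twist1* and *Prrx2*, where 16.0% of 31930 probes were called higher and 14.2% lower (53% of the calls higher, or 22.3% with the other scaling, under which *Vim* and *Zeb2* were no longer called). For *Cdh2* the difference of the steps was 0.75 (standard error 0.51, adjusted p = 0.255), with a step of 2.68 in adenomas and 3.43 in CT26. For *Snai1* it was 3.06 (standard error 1.07, adjusted p = 0.0368) and for *Zeb1* 2.04 (standard error 0.59, adjusted p = 0.0158), and these were not called. *Twist1* rests on adenoma signals above background on 1 of 3 arrays, so the size of its difference is not measured. The second *Zeb2* probe gave 1.49 (standard error 0.52, adjusted p = 0.0369) and was not called. Without colon replicate 3 again 7 of the 10 were called.

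Other genes of the pathway were read from 3 lists, of 15 epithelial genes (junctions, keratins and epithelial regulators), 15 mesenchymal genes (matrix, proteases and motility) and 12 further EMT regulators. In CT26 against colon 14 of the 15 epithelial genes fell and none rose, with a median difference of -8.21 (-6.86 with 8 genes at their bound) against 0.37 over all probes, of which 21.5% were called higher and 14.9% lower. *Cldn3*, a tight junction claudin, was at least 3649-fold lower, *Dsp*, which encodes the desmosomal protein desmoplakin, at least 943-fold lower, and *Krt8*, a keratin of simple epithelia, fell by 13.67 on the log2 scale (standard error 0.49, limma adjusted p = 1.26e-06), with CT26 above background on 2 of 3 arrays. The same 14 fell against adenomas (median -7.52, or -6.51 with 8 genes at their bound), led by *Krt8* (-13.36), *Cldn3* (at least 1807-fold lower) and *Dsp* (at least 896-fold lower), and *Pkp3*, a desmosomal plakophilin, did not pass in either (-0.27, adjusted p = 0.600, and -0.46, adjusted p = 0.159). The count of 14 held against colon and against adenomas when any single array was left out.

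The mesenchymal list was split in CT26. Against colon 7 of 14 tested genes rose and 2 fell, beside 21.5% and 14.9% of all probes, so that the share that fell was near that of all probes. The median over the list was 1.64, also with 1 gene at its bound. *Axl*, a receptor tyrosine kinase, rose by 6.02 (standard error 0.51, limma adjusted p = 6.78e-05) and *S100a4*, a calcium-binding protein of motile cells, by 6.00 (adjusted p = 2.56e-05). *Tagln*, an actin-binding protein of smooth muscle, fell by 8.49 (adjusted p = 2.96e-06), and *Mmp2*, a gelatinase, was at least 9.27-fold lower (adjusted p = 0.00181). Against adenomas, where 22.9% of all probes were called higher and 18.7% lower, 7 of 15 rose, led by *S100a4* (7.22), *Axl* (6.03) and *Fn1* (2.69), which encodes fibronectin. In the same comparison 5 fell, among them *Tagln* (-5.96), *Mmp2* (at least 46.3-fold lower) and *Lox*, a collagen cross-linking enzyme (at least 2.74-fold lower). With any single array left out, 4 to 7 rose and 1 to 2 fell against colon.

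Among the regulators, 6 of 9 tested rose in CT26 against colon and none fell, beside 21.5% and 14.9% of all probes, and the median of the 12 genes was 1.33, also with 2 at their bound. *Twist2*, the paralog of *Twist1*, rose by 8.29 (standard error 0.77, limma adjusted p = 0.000103) and *Prrx1*, the paralog of *Prrx2*, by 6.96 (adjusted p = 0.000391). Colon was above background on 1 of 3 arrays for *Twist2* and 2 of 3 for *Prrx1*. At least these 2 of the 6 therefore passed the filter on dim probes only through the CT26 arrays, where they are high. With any single array left out, 4 to 6 rose and 0 to 2 fell, and without colon replicate 3, 5 rose and 2 fell. Against adenomas 4 of 11 rose, beside 22.9% of all probes, among them *Twist2* (7.99) and *Prrx1* (5.12), and 3 fell, beside 18.7%, namely *Klf8* (at least 3.47-fold lower), *Snai3* (at least 4.10-fold lower) and *Tgfb2* (-1.42).

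In adenomas against small intestine, where 10.9% of all probes were called in each direction, 6 of 15 mesenchymal genes were called higher and none lower (median of the list 1.51, or 1.41 with 1 gene at its bound, and of all probes -0.15). *Mmp14*, a membrane-bound matrix protease, rose by 3.64 (standard error 0.18, limma adjusted p = 6.52e-05) and *Col1a1*, a fibrillar collagen chain, by 3.14 (adjusted p = 0.00108). Of the regulators 7 of 10 tested rose (median of the 12 genes 1.82, or 0.88 with 3 at their bound), among them *Tgfb1*, the cytokine that induces EMT in culture, by 2.38 (adjusted p = 0.000110), *Klf8* (at least 2.08-fold higher) and *Foxc2* (at least 1.29-fold higher). *Klf8*, *Foxc2* and *Twist2* were not well above background on any small intestine array and *Snai3* was so on 1 of 3, so these 4 of the 7 passed the filter only through the adenoma arrays, as did 2 of the 6 mesenchymal genes. The count of 7 was 3 to 4 when any single array was left out, with 1 regulator called lower without small intestine replicate 1, and that of the mesenchymal list was 5 to 10. Of the epithelial genes 4 of 15 fell, with *Ocln*, which encodes occludin, at -2.12 (adjusted p = 0.000244), *Ovol1* at -1.97 and *Cldn7* at -1.38, and *Krt18* rose by 1.29 (adjusted p = 0.00276). With any single array left out 3 to 4 fell and 0 to 2 rose, with none rising without small intestine replicate 2 or any of the adenoma arrays.

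Against adjacent tissue fewer genes of these lists were called in adenomas. *Col1a1* rose by 1.99 (standard error 0.20, limma adjusted p = 0.00554) and *Krt18* by 1.34 (adjusted p = 0.00813), while *Lox* was at least 1.58-fold higher and *Foxc2* at least 1.25-fold higher. In all 3 of 15 mesenchymal, 1 of 10 tested regulator and 1 of 15 epithelial genes were called, each of them higher, beside 2.27% of all probes higher and 1.71% lower. None of the epithelial and regulator calls was kept when any single array was left out, and the mesenchymal count then ran from 0 to 4 higher, being 0 without any of the adenoma arrays, with 1 called lower without adjacent replicate 2. Of all probes, 3.98% were called with all arrays, and 0.213%, 0% and 0.0906% without adenoma replicates 1, 2 and 3. Without adjacent replicates 1 and 2 it was 1.40% and 5.57%, so these counts moved with those of all probes. No gene of the 3 lists was called between adjacent tissue and small intestine or between colon and small intestine, although without colon replicate 3 the latter called 1 mesenchymal gene and 2 regulators, beside 6.94% of all probes.

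**Figure D4:**
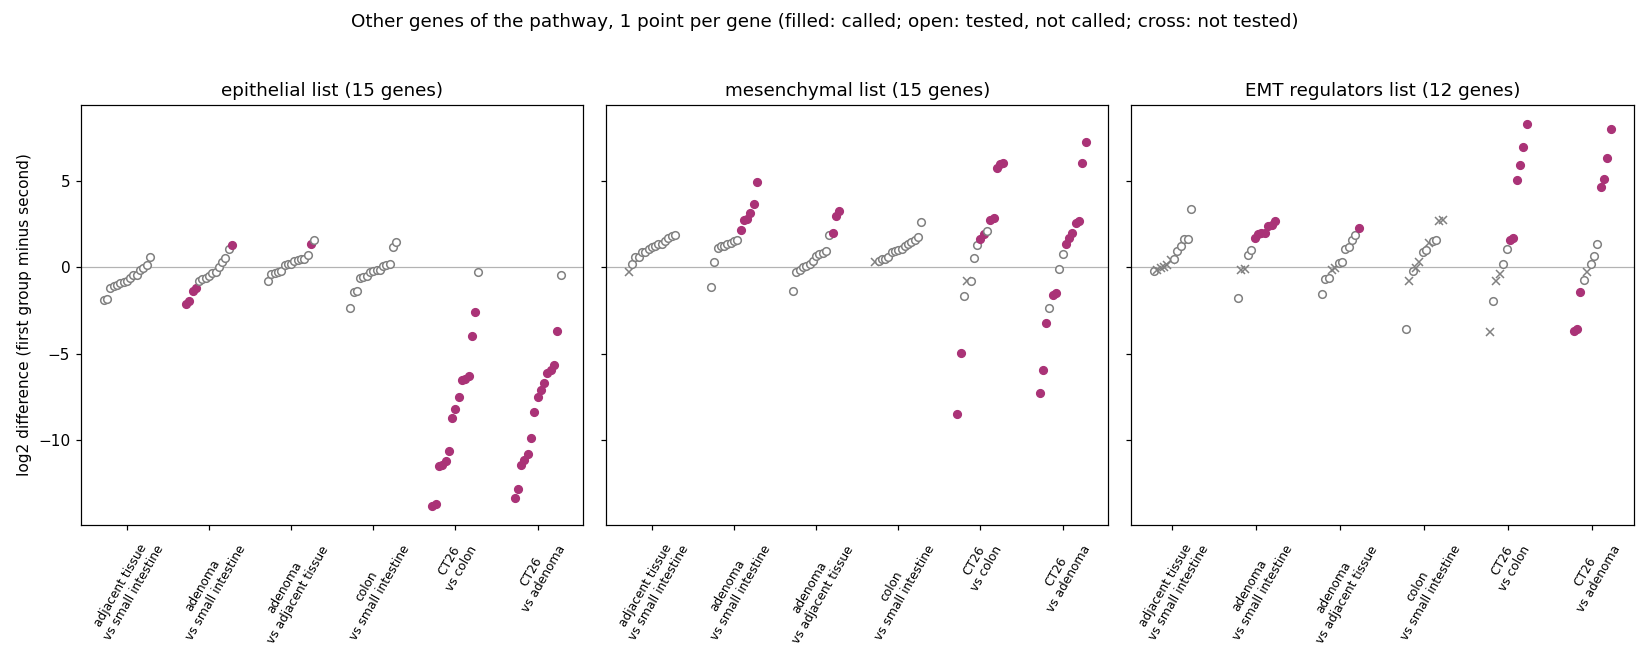
Log2 differences of the listed epithelial, mesenchymal and regulator genes in 6 pairs of groups, with 1 point per gene, filled where called, open where tested and not called, and crossed where not tested. In CT26 14 of 15 epithelial genes are called lower, while the mesenchymal list has called genes on both sides of 0.

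The genes whose pattern was most like a member were sought for the 5 members detected on all 14 arrays, over 32251 probes, by Pearson's r. CT26 stands apart in all of them and sets much of each r, and arrays of 1 mouse are not independent, so r over the 11 tissue arrays is given beside it. For *Cdh2* they were *Mdc1* (0.98 over 14 arrays and 0.95 over 11), *Vrk2* (0.98 and 0.95) and *Dnajc18* (0.98 and 0.93). For *Vim* they were *Serpinf1* (0.99 and 0.94), a transcript with an Ensembl identifier only (0.99 and 0.94) and *Pcolce* (0.99 and 0.87). *Zeb1* was most like *Gli3* (0.98 and 0.93), *Timp2* (0.98 and 0.92) and *Bag2* (0.98 and 0.91), and *Zeb2* like *Ptbp2* (0.98 and 0.74), *Plekha4* (0.98 and 0.67) and *Gpx8* (0.97 and 0.86). *Prrx2* was most like *Ccn1* (0.99 and 0.95), *Mst1* (0.99 and 0.95) and *Xkr5* (0.99 and 0.89).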

How the data were processed

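Cy3-labelled RNA of each sample was hybridized to its own Agilent array in a single color. The signal intensity of each spot was deposited by the authors as scanner output (Feature Extraction 10.7.3.1, probe positions in mm9), corrected for background within the array and not scaled between arrays. A second deposited table gives log2 values that the authors normalized by a method not given in the sources used here, and it served as an alternative. Its 28 further columns of single samples and its fold changes and p-values between groups were not used.

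Control and outlier spots were left out, replicate spots averaged, and the 75th percentile of each array subtracted from the log2 signal. For a gene with several probes the brightest on average was taken. Groups came from the sample labels. The limma package 3.58.1 (lmFit and eBayes) in R 4.3.3 compared pairs of groups, with p-values adjusted over all probes tested and the thresholds of the study's methods, and was tested on simulated data. A probe that no array of the dimmer group had above background gives a bound: the brighter mean against the mean, over the dim arrays, of whichever is higher, its own signal or the lowest one above background. Each bound holds for these values only, and the difference can be smaller under an alternative. The number of arrays limits the precision.

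The members and lists were chosen with earlier results of these data known. All members were named, as were the 3 called genes of each other list with the largest log2 difference in each comparison and direction, and the 3 genes of highest r. Some genes that this rule names are not reported here singly and stay in the counts of their lists. Marker genes and *Pkp3* were named after their values were seen. Alternatives were the authors' table, normexp (offset 50), quantile normalization, another scaling, 2 other filters, a fit of all 5 groups, blocks for slide, replicate number or title number, another threshold, any probe of a gene, and each array left out. For the lists, leaving out arrays was added after the values were seen.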

Additional observations from a re-analysis of the deposited data

Results flagged for a closer look

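For 7 of the 10 genes the step from colon to CT26 differed from the step from small intestine to adenoma in a limma contrast of the 2 differences. The difference of the steps was -11.96 for *Cdh1* (standard error 0.33, adjusted p = 1.92e-09) and -11.11 for *Epcam* (standard error 0.40, adjusted p = 6.48e-09), which rest on CT26 signals that were not well above background and are not measured sizes. It was 3.51 for *Vim* (standard error 0.71, adjusted p = 0.00213), 5.14 for *Snai2* (standard error 0.86, adjusted p = 0.000631), 3.56 for *Zeb2* (standard error 0.77, adjusted p = 0.00323), 6.79 for *Twist1* (standard error 0.70, adjusted p = 1.95e-05) and 5.54 for *Prrx2* (standard error 1.02, adjusted p = 0.00122). That of *Twist1* rests on a group with 1 of 3 adenoma and 2 of 3 small intestine arrays above background, a pair that was not tested alone, and is likewise not a measured size. Without colon replicate 3 these values were -11.99, -10.82, 3.25, 4.69, 3.40, 6.67 and 5.29, all called. The call for *Vim* was lost with quantile normalization (2.83, adjusted p = 0.0116) and with the other scaling (2.66, adjusted p = 0.0194), and that for *Zeb2* with the other scaling (2.71, adjusted p = 0.0175). The second *Zeb2* probe, not well above background on any tissue array, gave 1.49 (adjusted p = 0.0369) and was not called. CT26 is a cultured line of another strain and the adenomas are whole tissue, so the stage of the tumor and these differences cannot be told apart.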

How the results depend on the processing

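No member changed direction with a call under any of the 26 alternatives, and 31 of 1139 member values lost a call and 16 gained one. Between adenomas and small intestine 3 members were called, 1 with all 5 groups in 1 fit and 6 at an adjusted p of at most 0.05 without a fold limit, and 2 to 4 with 1 array left out. Between adenomas and adjacent tissue 1 was called, and 0 with the authors' table, normexp, no filter on dim probes, all 5 groups in 1 fit, slide as a block, the replicate block (adjusted p = 0.0566 for *Prrx2*), the title number as a block or the other scaling, 4 at the looser threshold, and 0 to 0 with 1 array left out. The cause was not tested. With the filter that asks for signal on every array of every group, which removes members dim in 1 group, 6 were called between CT26 and colon, in place of 10, and 3 in the difference of steps, in place of 7. With 1 array left out these were 8 to 10 and 7 to 9, and 10 to 10 between CT26 and adenomas, where that filter gave 7. None was called between adjacent tissue or colon and small intestine under any alternative.

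The other scaling moved the median of all probes between CT26 and colon from 0.37 to -0.29, and *Zeb1* then lay at 1.43 (adjusted p = 0.0329). It moved the median from -0.15 to 0.03 between adenomas and small intestine. Over all probes the percentage called between adenomas and adjacent tissue ran from 0 to 19.9, between adenomas and small intestine from 9.31 to 52.1, and between colon and small intestine it was 6.94 without colon replicate 3. Correlations of deviations of arrays with the same replicate number ran from -0.125 to 0.291, with pairs that include CT26 among them. With so few arrays per group the deviations from a group mean depend on each other. These values therefore cannot decide whether replicate numbers pair the samples. As a block, replicate numbers changed the count of called members only between adenomas and adjacent tissue.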
